A study of Mus musculus with 24 samples.

Results

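The liver keeps blood glucose steady between meals by making glucose from lactate, amino acids and glycerol (gluconeogenesis) and by breaking down stored glycogen, and after meals it takes glucose up and stores it. The 9 genes described here encode enzymes, a transporter and a regulator of these routes. They were chosen by function from the 55536 genes of the deposited expression table, where each has 1 entry, with earlier results of these data known. Pcx (pyruvate carboxylase), Pck1 (cytosolic phosphoenolpyruvate carboxykinase), Fbp1 (fructose bisphosphatase) and G6pc (the catalytic subunit of glucose phosphatase in the endoplasmic reticulum) are the enzymes that carry gluconeogenesis past the irreversible steps of glycolysis. Ppargc1a encodes PGC-1alpha, a coactivator known to raise gluconeogenic transcription in fasting. Slc2a2 encodes the hepatocyte glucose transporter GLUT2, Pklr the pyruvate kinase of liver and red cells, which runs in the glycolytic direction, Gys2 the liver glycogen synthase and Pygl the liver glycogen phosphorylase. In textbook accounts glucagon and fasting raise Pck1 and G6pc transcripts, and insulin and feeding lower them.

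RNA was sequenced from livers of wild type Balb/c mice, 6 weeks old, in 8 libraries of healthy controls (Con), 8 of acute pancreatitis (AP) and 8 of severe acute pancreatitis (SAP). The sources used here do not give how pancreatitis was induced, when livers were taken or whether the animals had been fasted. Nothing in the labels states that libraries of a group are separate animals, and p-values therefore cover the spread between libraries, which may be technical. Levels are in TPM, a relative transcript abundance corrected for transcript length that can be compared between genes. TPM keeps no sequencing depth, so the depth behind each value is unknown.

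Livers matched their label. The summed level of 8 hepatocyte markers was 86373 to 106762 TPM in controls, 86820 to 106583 TPM in AP and 71203 to 93318 TPM in SAP, and 6 exocrine pancreas markers summed to at most 0.98 TPM in any library. Of the 8 hepatocyte markers Trf and Fgb rose and Ttr and Apoa2 fell in SAP, and Alb did not pass. Of 4 endothelial markers tested, Stab2 and Lyve1 rose and Clec4g fell in SAP. In these whole-liver samples, fewer cells of a type and less RNA per cell cannot be told apart. Transcripts of the mitochondrial genome took 12.5 to 22.2% of TPM in controls, 7.81 to 13.7% in AP and 2.80 to 6.26% in SAP. Neutrophil markers, 6 in number, summed to 2.22 to 27.7 TPM in controls, 3.07 to 7.57 TPM in AP and 126 to 356 TPM in SAP. Of the 4 neutrophil markers tested, all rose in SAP. Testing required a mean of 1 TPM over all 24 libraries, which high SAP values alone can meet, so this count is not independent support. The data were also rescaled without the mitochondrial genes.

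Pck1, Fbp1 and G6pc are known to be higher in periportal than in pericentral hepatocytes, so markers of both zones stand beside them. The 6 periportal markers summed to 1056 to 2341 TPM in controls, 891 to 1952 TPM in AP and 659.7 to 2018 TPM in SAP, and in SAP 4 of the 6 fell and 1 rose. The 6 pericentral markers summed to 1278 to 2690 TPM in controls, 2772 to 4822 TPM in AP and 1916 to 3830 TPM in SAP, and of the 5 tested 2 rose in AP, and 2 rose and 1 fell in SAP. The 6 macrophage markers summed to 52.4 to 192 TPM in controls and 21.5 to 66.5 TPM in SAP, where 3 of the 4 tested fell. All marker counts so far stand beside the shares of all genes tested against controls. In SAP 44.2% rose and 29.8% fell, and in AP 4.35% rose and 1.13% fell. None of these zone, neutrophil and macrophage markers was at 0 in all libraries of a group. Their part in the results was not tested.

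The promoters of 4 members are shown first, for the member between the extremes (Pck1), the members with large falls in SAP (G6pc, Slc2a2) and the member with the largest rise (Fbp1). They are the 250 bases before the transcription start, 5′ to 3′ on the gene's strand, from RefSeq on GRCm38.p6, at chr2:173152823-173153072 (plus strand) for Pck1, chr11:101367466-101367715 (plus) for G6pc, chr3:28697653-28697902 (plus) for Slc2a2 and chr13:62888283-62888532 (minus) for Fbp1. Capitals mark matches to 4 searched motifs.
Pck1: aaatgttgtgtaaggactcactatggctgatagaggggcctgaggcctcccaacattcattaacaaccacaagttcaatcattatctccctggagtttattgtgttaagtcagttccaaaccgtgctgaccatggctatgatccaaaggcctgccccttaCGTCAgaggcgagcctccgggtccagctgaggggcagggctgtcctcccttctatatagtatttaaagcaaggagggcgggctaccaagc
G6pc: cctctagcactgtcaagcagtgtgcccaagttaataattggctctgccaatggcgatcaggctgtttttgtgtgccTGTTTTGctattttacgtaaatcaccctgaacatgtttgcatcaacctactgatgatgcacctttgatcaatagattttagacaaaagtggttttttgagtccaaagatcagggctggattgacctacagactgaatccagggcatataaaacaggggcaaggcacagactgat
Slc2a2: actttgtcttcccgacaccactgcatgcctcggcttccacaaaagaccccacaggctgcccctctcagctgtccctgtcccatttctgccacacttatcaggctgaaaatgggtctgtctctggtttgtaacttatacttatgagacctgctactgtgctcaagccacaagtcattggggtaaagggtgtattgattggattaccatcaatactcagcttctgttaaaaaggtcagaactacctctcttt
Fbp1: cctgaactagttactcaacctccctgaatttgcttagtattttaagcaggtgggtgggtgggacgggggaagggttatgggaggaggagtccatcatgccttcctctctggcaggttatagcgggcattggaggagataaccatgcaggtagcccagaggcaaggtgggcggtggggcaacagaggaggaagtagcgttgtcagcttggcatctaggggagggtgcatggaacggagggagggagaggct
The motifs, searched on both strands, were the half-site of the cAMP response element (TGACG), the insulin response core (TGTTTTG or TATTTTG), the E-box CACGTG and the glucocorticoid half-site TGTTCT, and none of these spellings contains another. The promoter of Pck1 held the cAMP half-site in reverse complement at -90 to -86, counting -1 as the base before the start, and that of G6pc held the insulin response core at -174 to -168. Those windows of Slc2a2 and Fbp1 held no match to the 4 motifs. Of 32851 RefSeq promoter windows of the same length, 17.8% held the cAMP half-site, 9.14% the insulin response core, 6.02% the E-box and 16.1% the glucocorticoid half-site. Promoters were found for 8 of the 9 members. Ppargc1a and Pygl also had a cAMP half-site, at -49 to -45 and -44 to -40, and the upstream promoter of Pcx had an E-box at -248 to -243. A match describes the letters and is not evidence of binding.

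Levels in SAP livers split the set. Fbp1 and Pcx were higher in SAP than in controls, while G6pc, Slc2a2, Pklr, Gys2 and Pygl were lower, and Pck1 did not pass the test. In AP livers Fbp1 and Pcx passed as higher than in controls, and no other tested member passed. Of the 9 members, 8 reached a mean of 1 TPM and were tested together with all 10555 genes at that level (limma on log2(TPM + 1), Benjamini-Hochberg adjusted p under 0.05 over all genes). Fold changes are on the scale of TPM + 1. Between SAP and controls 2 of the 8 rose and 5 fell, where 74.0% of all genes passed, 44.2% upward and 29.8% downward. Passing alone therefore says little about these genes, and the sizes of the changes are given. The median absolute log2 change was 1.65 over the 8 members and 0.78 over all genes tested, and the median signed change was -1.09 and 0.21. Because the members were chosen with earlier results of these data known, such contrasts with all genes are descriptive and test nothing. Between AP and controls 2 of the 8 rose and 0 fell, where 5.48% of all genes passed, 4.35% upward and 1.13% downward. Scaling moved the background. Of all genes 4661 rose and 3147 fell in SAP against controls, and 3888 and 4300 after median centring. In AP 459 rose and 119 fell, against 388 and 265 after quantile normalization, 194 and 215 without the 50 most abundant genes and 211 and 173 without mitochondrial genes.

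In size the members ranged widely. Adding 1 TPM shrinks changes most at low levels, and the genes tested reach down to a mean of 1 TPM. The 8 tested members averaged 11.8 TPM or more in controls. Neither the ranks below nor the median absolute change above therefore compares genes of like level. The absolute log2 change in SAP against controls was larger than that of 98.4% of all genes for Slc2a2, 93.1% for Fbp1, 86.9% for G6pc, 84.4% for Pklr, 83.6% for Pcx, 73.3% for Gys2, 56.3% for Pygl and 43.1% for Pck1. The SAP and control libraries did not overlap for 6 of the 8 tested members, 2 higher and 4 lower, where 37.8% of all genes did not overlap, 23.2% higher and 14.6% lower. Between SAP and AP 2 of the 8 rose and 6 fell, where 72.1% of all genes passed, 41.0% upward (4332 genes) and 31.0% downward (3275 genes), and after median centring 3708 rose and 4278 fell. There 5 members did not overlap, 2 higher and 3 lower, where 37.3% of all genes did not, 22.0% higher and 15.2% lower. Between AP and controls 1 member, Pcx, did not overlap, where 0.748% of all genes did not, 0.644% higher and 0.104% lower.

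**Figure D1:**
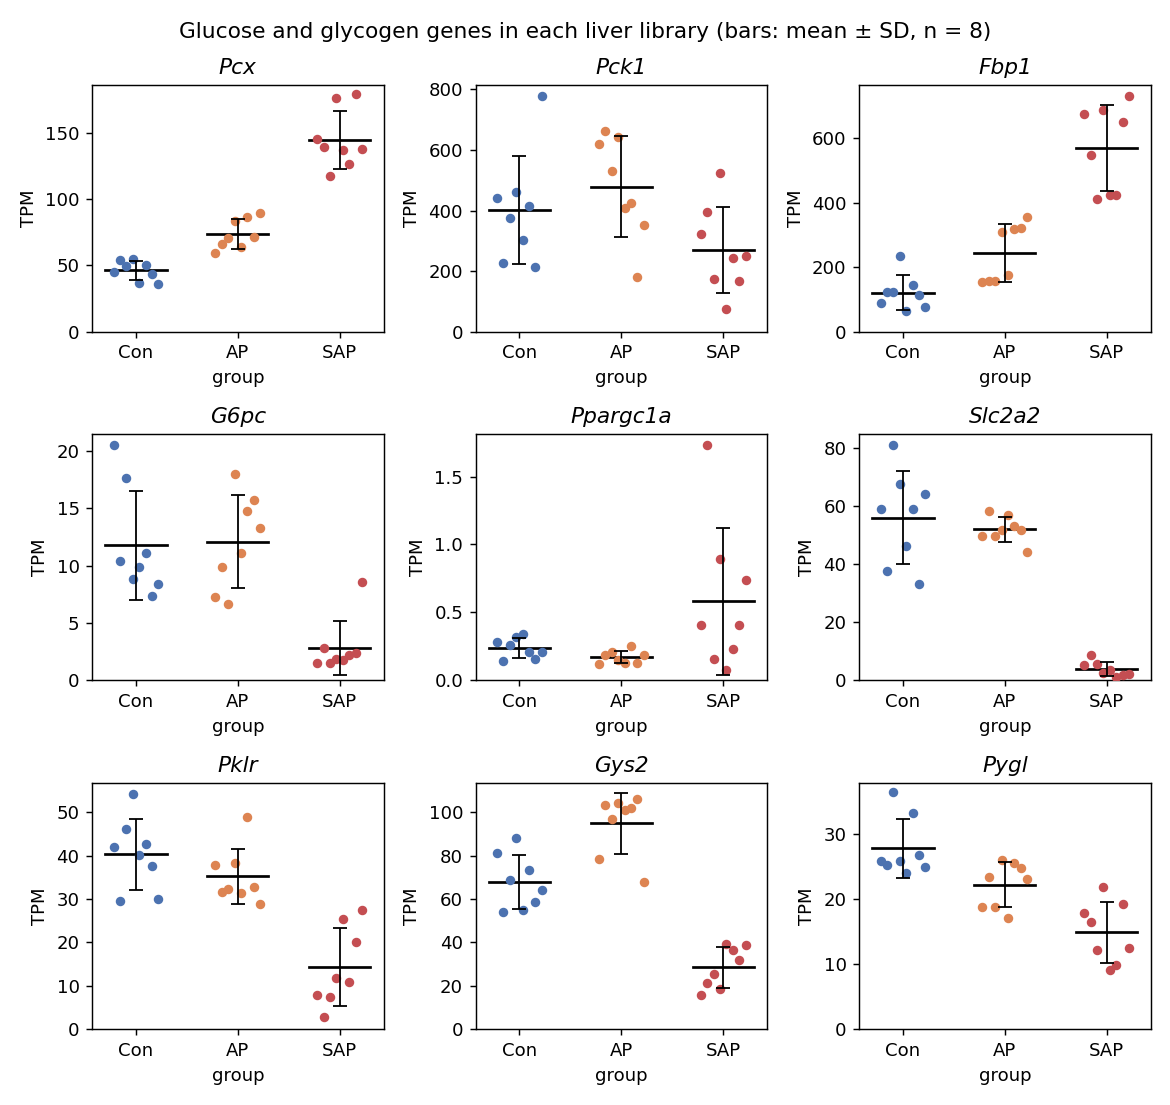
Levels of the 9 genes in TPM (vertical axes, from 0) in each of 24 liver libraries by group, with points for libraries and bars for mean ± SD of 8. Fbp1 and Pcx step up from Con to AP to SAP, while the SAP livers lie below all controls for Slc2a2, Pklr, Gys2 and Pygl.

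Pcx, the mitochondrial enzyme that makes oxaloacetate from pyruvate, was at 35.6 to 54.7 TPM in controls (median 47.1), 59.0 to 89.3 TPM in AP (median 70.8) and 117 to 179 TPM in SAP (median 138). The 3 groups did not overlap. The control mean was 46.1 ± 7.39 TPM and the AP mean 73.6 ± 11.3 TPM (SD, n = 8 each), a log2 change of 0.67 ± 0.12 (SE, limma adjusted p = 0.00281). In SAP the mean was 145 ± 22.0 TPM, a 3.10-fold rise over controls (log2 change 1.63 ± 0.12, limma adjusted p = 5.74e-12) and a 1.95-fold rise over AP (limma adjusted p = 6.84e-08). Pcx had the smallest relative spread of the members in SAP, a coefficient of variation of 15.2%.

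Fbp1, which removes a phosphate from fructose bisphosphate, was at 63.6 to 235 TPM in controls (median 118), 152 to 355 TPM in AP (median 242) and 413 to 732 TPM in SAP (median 599). All SAP livers lay above all others, and 4 AP livers lay above every control. Means were 121 ± 53.5 TPM for controls, 243 ± 89.8 TPM for AP and 569 ± 134 TPM for SAP (SD, n = 8 each). The rise was 2.03-fold in AP (log2 change 1.02 ± 0.24, limma adjusted p = 0.0168) and 4.93-fold in SAP (log2 change 2.30 ± 0.24, limma adjusted p = 4.41e-09). SAP livers also stood 2.42-fold above AP livers (limma adjusted p = 4.004e-05). By its mean Fbp1 was the most abundant of the 9 transcripts in SAP, ahead of Pck1, which led in controls and AP.

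The AP livers fell into sets for Fbp1. Pcx was ordered the same way but without a gap, with AP 13 at 70.44 TPM and AP 18 at 71.06 TPM. Fbp1 was at 308 to 355 TPM in AP 15, 17, 18 and 19, against 152 to 176 TPM in AP 11, 12, 13 and 16, and Pcx was at 71.1 to 89.3 and 59.0 to 70.4 TPM. G6pc followed the same division, at 13.3 to 18.0 and 6.69 to 11.2 TPM. No label separates these sets of libraries, and the division was found in values of these data. The mitochondrial share of TPM was 7.81 to 10.3% in the former and 11.5 to 13.7% in the latter, and its part in the division was not tested. With all livers, the calls of Fbp1 and Pcx in AP held after rescaling without mitochondrial genes. Fits that leave out either set, and so keep 4 AP libraries, were alternatives added after the data were seen. Without AP 15, 17, 18 and 19, neither gene passed against controls (Fbp1 log2 change 0.52, limma adjusted p = 0.825, and Pcx 0.49, limma adjusted p = 0.317). In that fit of 4 AP libraries 11 of all genes passed, against 578 with all livers, and the 4 that remain were still all above every control for Pcx.

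**Figure D2:**
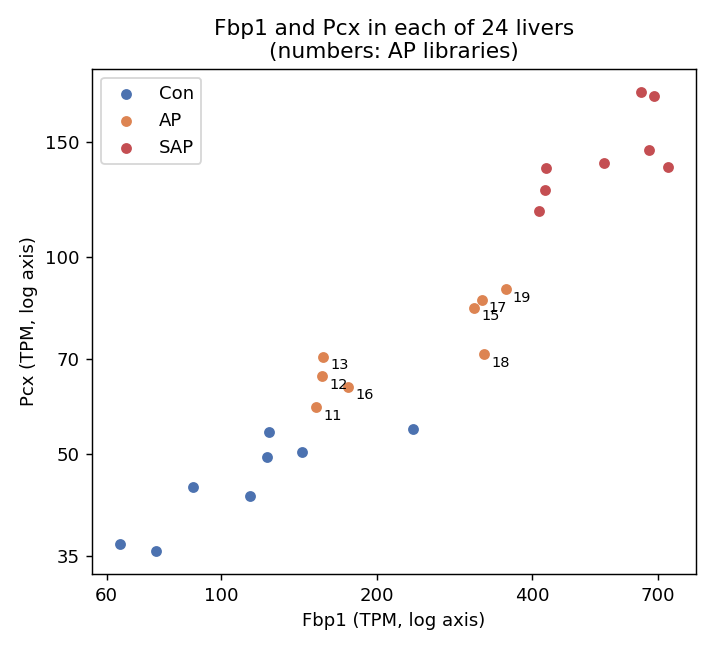
Pcx against Fbp1 in each of 24 livers, both in TPM on log axes, coloured by group, with the numbers of the AP libraries beside their points. Within AP, libraries 15, 17, 18 and 19 lie at 308 to 355 TPM of Fbp1 and the other AP libraries at 152 to 176 TPM.

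Pck1, which makes phosphoenolpyruvate from oxaloacetate and whose promoter is printed above, was at 213 to 779.6 TPM in controls (median 395), 182 to 664 TPM in AP (median 478) and 74.7 to 524 TPM in SAP (median 247). The groups overlapped widely, with 3 SAP livers below every control. Its mean was 402 ± 179 TPM in controls and 478 ± 167 TPM in AP (log2 change 0.26 ± 0.33, 95% interval -0.41 to 0.94, limma adjusted p = 0.722). In SAP it was 269 ± 142 TPM, a log2 change against controls of -0.67 ± 0.33 (95% interval -1.34 to 0.01) that did not pass (limma adjusted p = 0.0708). That comparison depended on scaling and on single livers. Pck1 passed as lower after median centring (limma adjusted p = 0.0216) and after rescaling without mitochondrial genes (limma adjusted p = 0.022). It also passed without SAP 21, 22, 24 and 25 (limma adjusted p = 0.00837), without Con 3 and Con 9 together (limma adjusted p = 0.0202), and without Con 3, Con 9, SAP 22 or SAP 25 alone, with a limma adjusted p of 0.0448, 0.0402, 0.0424 and 0.0236. Con 3 and Con 9 were the lowest controls and SAP 22 and SAP 25 the highest SAP livers, so leaving them out enlarges the fall. Without SAP 26, the lowest SAP liver, the log2 change was -0.43 (limma adjusted p = 0.189). Over the 16 alternatives other than single-library fits it ran from -1.15 to -0.18. Against AP, Pck1 was lower in SAP (log2 change -0.93 ± 0.33, limma adjusted p = 0.0141), and this call ended after quantile normalization (0.0699), without SAP 26 to 29 (0.274) and without AP 11, 12, 13 and 16 (0.188), all limma adjusted p-values. The last of these fits was added after the data were seen.

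G6pc, which releases free glucose at the last step, was at 7.33 to 20.5 TPM in controls (median 10.1), 6.69 to 18.0 TPM in AP (median 12.2) and 1.56 to 8.61 TPM in SAP (median 2.04). Of the 8 SAP livers, 7 were at or below 2.86 TPM and below every control, and SAP 29 was at 8.61 TPM. The mean fell from 11.8 ± 4.72 TPM in controls to 2.85 ± 2.37 TPM in SAP (SD, n = 8 each), a 3.50-fold fall (log2 change -1.81 ± 0.25, limma adjusted p = 5.75e-07), and the log2 change was -2.02 without SAP 29. AP livers were at 12.1 ± 4.06 TPM, with a log2 change against controls of 0.05 (95% interval -0.47 to 0.57, limma adjusted p = 0.951). Fbp1 and G6pc act in the same pathway, with the step of Gpi1 between them, and went in opposite directions in SAP. The ratio of Fbp1 to G6pc within a liver, which does not depend on library scaling, was 4.30 to 26.6 in controls, 15.8 to 26.7 in AP and 85.0 to 432 in SAP. SAP livers were above all others in that ratio. It combines the rise of Fbp1 and the fall of G6pc given above and is not separate support.

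Slc2a2, the transporter through which glucose enters and leaves hepatocytes, had the largest fall of the members. It was at 33.2 to 81.1 TPM in controls (median 59.2), 44.2 to 58.3 TPM in AP (median 51.9) and 1.26 to 8.70 TPM in SAP (median 3.08). SAP livers lay far below all others, while AP livers lay within the range of controls. The mean fell from 56.1 ± 16.1 TPM in controls to 3.91 ± 2.49 TPM in SAP (SD, n = 8 each), a 12.5-fold fall (log2 change -3.64 ± 0.23, limma adjusted p = 4.89e-13). Only 66 of the 10555 genes tested had a more negative log2 change. Against AP, at 52.1 ± 4.40 TPM, the fall was 11.97-fold (limma adjusted p = 7.07e-13). Between AP and controls the log2 change was -0.06 (95% interval -0.53 to 0.41, limma adjusted p = 0.930). The level relative to Alb, the albumin transcript of hepatocytes, was 0.00229 to 0.00508 in controls and 0.000101 to 0.000407 in SAP.

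**Figure D3:**
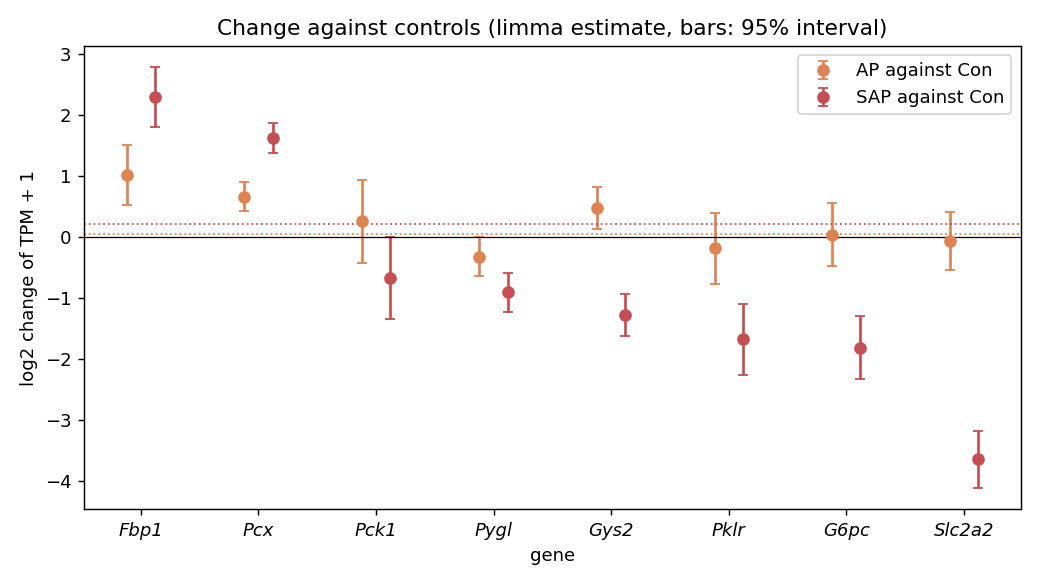
Log2 change of TPM + 1 against controls (vertical axis) for the 8 tested genes in AP and in SAP, with limma estimates as points, 95% intervals as bars, and the median of all genes tested as dotted lines (0.06 for AP, 0.21 for SAP). In SAP the estimates run from 2.30 for Fbp1 to -3.64 for Slc2a2, and in AP the intervals of Fbp1, Pcx and Gys2 lie above 0, of which Gys2 did not pass after adjustment.

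Pklr, which makes pyruvate in the glycolytic direction, was at 29.5 to 54.3 TPM in controls (median 41.1), 28.9 to 48.9 TPM in AP (median 32.5) and 2.80 to 27.4 TPM in SAP (median 11.4). The SAP livers were below all others but spread widely, with a coefficient of variation of 63.0%. Its mean fell 3.18-fold from 40.3 ± 8.17 TPM in controls to 14.3 ± 8.98 TPM in SAP (log2 change -1.67 ± 0.28, limma adjusted p = 9.59e-06), and was 35.2 ± 6.38 TPM in AP (limma adjusted p = 0.792 against controls). Within SAP it was at 2.80 to 11.9 TPM in libraries 21, 22, 24 and 25 and at 11.0 to 27.4 TPM in libraries 26 to 29. The log2 change against controls was -2.38 without SAP 26 to 29 and -0.96 without SAP 21, 22, 24 and 25, and it passed in both fits. Against AP it was -1.49 with all livers, and -2.20 and -0.78 in those fits. Exons of Pklr overlap Hcn3 on the opposite strand in the GENCODE M21 annotation, and strand use in the counting is not given, so its reads cannot be fully told apart from those of Hcn3, whose mean was 1.84 TPM in controls and 0.494 TPM in SAP.

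Both glycogen enzymes were lower in SAP, and in AP their levels lay in opposite directions. Gys2, the synthase, was at 53.9 to 87.9 TPM in controls (median 66.5), 67.9 to 106 TPM in AP (median 101) and 15.9 to 39.4 TPM in SAP (median 28.5). The SAP livers lay below all others, and 6 AP livers exceeded every control. The mean was 67.9 ± 12.4 TPM in controls, 94.9 ± 14.0 TPM in AP and 28.5 ± 9.39 TPM in SAP (SD, n = 8 each). Its fall in SAP was 2.42-fold against controls (log2 change -1.27 ± 0.17, limma adjusted p = 2.61e-07) and 3.38-fold against AP (limma adjusted p = 1.32e-09). The AP difference (log2 change 0.48 ± 0.17) did not pass with all livers (limma adjusted p = 0.0939). It passed with array weights (0.0252), with AP and controls alone (0.0332), and without SAP 21, 22, 24 and 25 (0.0206) or SAP 26 to 29 (0.0245), all limma adjusted p-values. Within SAP, Gys2 was at 15.9 to 25.2 TPM in libraries 21, 22, 24 and 25 and at 31.9 to 39.4 TPM in libraries 26 to 29.

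Pygl, the phosphorylase that releases glucose units from glycogen, was at 24.0 to 36.6 TPM in controls (median 25.9), 17.1 to 26.1 TPM in AP (median 23.2) and 9.04 to 21.9 TPM in SAP (median 14.5). SAP livers lay below every control and overlapped AP livers, of which 5 lay below every control. The mean fell 1.87-fold from 27.8 ± 4.51 TPM in controls to 14.9 ± 4.67 TPM in SAP (log2 change -0.90 ± 0.15, limma adjusted p = 9.91e-06). It was 22.2 ± 3.46 TPM in AP, which did not pass against controls (log2 change -0.32 ± 0.15, limma adjusted p = 0.239). SAP was lower than AP (log2 change -0.59 ± 0.15, limma adjusted p = 0.00142), except without AP 15, 17, 18 and 19 (limma adjusted p = 0.0636). The ratio of Gys2 to Pygl within a liver was 1.88 to 3.40 in controls, 2.94 to 5.89 in AP and 0.848 to 4.36 in SAP. In that ratio SAP livers spanned more than the whole control range.

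**Figure D4:**
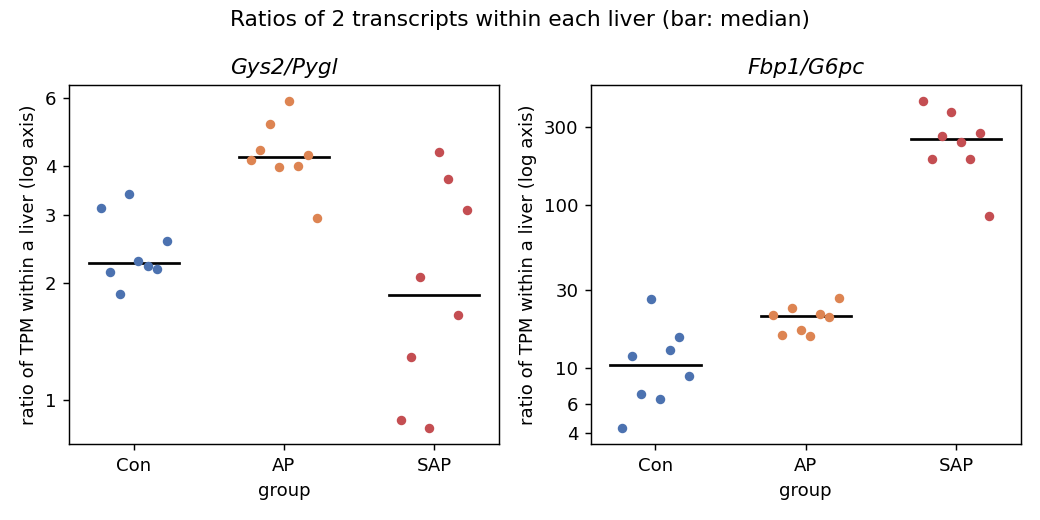
Ratio of Gys2 to Pygl TPM and of Fbp1 to G6pc TPM within each liver (log axes) by group, with points for libraries and bars for the group median. Fbp1 to G6pc is 85.0 to 432 in SAP against 4.30 to 26.6 in controls, and Gys2 to Pygl overlaps between all groups.

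Ppargc1a had a mean under the 1 TPM needed for the test of all genes. It was at 0.14 to 0.34 TPM in controls (median 0.235), 0.12 to 0.25 TPM in AP (median 0.17) and 0.08 to 1.73 TPM in SAP (median 0.41). In SAP, 5 livers lay above every control and 1 below. By exact permutation tests of the mean log2(TPM + 1), two-sided, over all 12870 arrangements of 8 against 8, none of 3 comparisons passed after adjustment over the 3 (AP against controls p = 0.0434, adjusted 0.065, SAP against controls p = 0.0848, adjusted 0.0848, SAP against AP p = 0.0183, adjusted 0.055). Without a filter on low values, limma gave an adjusted p of 0.914 for AP against controls, 0.0745 for SAP against controls and 0.0226 for SAP against AP.

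The order of levels in controls was Pck1, Fbp1, Gys2, Slc2a2, Pcx, Pklr, Pygl, G6pc and Ppargc1a. In SAP it was Fbp1, Pck1, Pcx, Gys2, Pygl, Pklr, Slc2a2, G6pc and Ppargc1a. Most neighbours in these orders had overlapping ranges over libraries. In controls Pygl and G6pc, and G6pc and Ppargc1a, did not overlap, and in SAP Pcx and Gys2 did not. AP and SAP were compared with the same control livers, so their changes against controls share those values.

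Other genes of the same routes were followed in 5 lists, 83 entries of which were tested. The lists too were chosen with earlier results of these data known, so their counts beside all genes are descriptive. Between AP and controls 7 rose and 2 fell, where 5.48% of all genes passed. Between SAP and controls 38 rose and 29 fell, where 44.2% of all genes rose and 29.8% fell, and the counts of each list below stand against those same shares. Of 8 tested genes of glucose transport and phosphorylation, 5 fell in SAP and 0 rose, with a median log2 change of -1.04 against 0.21 over all genes. Slc2a8, a hexose transporter of inner membranes, rose in AP from 4.41 ± 1.19 to 6.77 ± 1.32 TPM (limma adjusted p = 0.0432), and 20 of 40 alternatives ended that call. Gckr fell from 69.7 ± 13.4 to 21.7 ± 7.09 TPM in SAP. Mlxipl, the glucose-responsive transcription factor ChREBP, fell from 19.0 ± 7.75 to 5.77 ± 1.96 TPM, and Slc2a9, a urate and hexose transporter, from 6.03 ± 5.18 to 1.94 ± 0.977 TPM.

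Of 18 tested genes of substrate entry into gluconeogenesis, 10 rose and 4 fell in SAP (median log2 change 0.52, with 44.2% of all genes rising and 29.8% falling), and 4 rose in AP, where 4.35% of all genes rose. Ldha, a lactate dehydrogenase subunit, was at 59.5 to 154 TPM in controls, 167 to 368 TPM in AP and 2452 to 3384 TPM in SAP. Its groups did not overlap. Of all genes, 0.748% did not between AP and controls, 37.8% between SAP and controls and 37.3% between SAP and AP. The log2 change of Ldha was 1.31 ± 0.20 in AP (limma adjusted p = 0.000494) and 4.94 ± 0.20 in SAP (limma adjusted p = 8.51e-17). Slc16a1, the lactate and pyruvate carrier, rose from 2.32 ± 0.590 to 35.5 ± 9.47 TPM in SAP, and Gpt2, a mitochondrial alanine aminotransferase, from 37.1 ± 7.85 to 141 ± 50.4 TPM. Aqp9, through which hepatocytes take up glycerol, fell from 53.0 ± 10.8 to 7.34 ± 1.16 TPM, with all SAP livers below every control, as for 14.6% of all genes. In AP the risers were Ldha, Got2, Gpd1 and Mdh2. Without AP 15, 17, 18 and 19 none of these 4 calls held. The log2 change of Ldha was at least 0.96 in all 40 alternatives, and that fit is the only one that ended its call. The call of Gpd1 ended in 13 of the 40.

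In the glycolytic and shared steps, 5 of 16 tested entries rose and 7 fell in SAP (median log2 change -0.06). Both genes named here for the bifunctional enzyme that sets the level of a sugar phosphate signal favouring glycolysis over Fbp1 changed, in opposite directions. Pfkfb3, an inducible form, rose from 1.18 ± 0.470 to 21.8 ± 4.88 TPM (log2 change 3.38 ± 0.14), and Pfkfb1, the liver form, fell from 9.88 ± 1.78 to 0.926 ± 0.375 TPM (log2 change -2.50 ± 0.15). Gpi1, which interconverts the hexose phosphates, fell from 137 ± 35.2 to 51.3 ± 7.36 TPM, and Gapdh, a triose phosphate dehydrogenase, from 1931 ± 91.9 to 1076 ± 181 TPM. In AP only Pgk1, phosphoglycerate kinase, passed, at 22.0 ± 8.77 and 42.7 ± 16.7 TPM (limma adjusted p = 0.0285), and 8 of 40 alternatives ended that call, among them leaving out AP 15, 17, 18 and 19. Slc37a4, which carries the substrate of G6pc into the endoplasmic reticulum, fell in SAP from 28.6 ± 6.57 to 13.7 ± 4.66 TPM and was named after its values were seen.

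Glycogen genes beside Gys2 and Pygl went both ways in SAP, with 7 of 16 tested higher and 6 lower (median log2 change 0.13). Phka2, the liver alpha subunit of phosphorylase kinase, which activates Pygl, fell from 2.16 ± 0.501 to 0.514 ± 0.152 TPM. Gyg, glycogenin, the primer of glycogen synthesis, rose from 1.98 ± 0.627 to 7.35 ± 2.27 TPM, and Gsk3b, a kinase that inhibits glycogen synthase, from 2.74 ± 0.457 to 5.87 ± 0.965 TPM. In AP, Pgm1 rose and Pgm2, both phosphoglucomutase genes, fell (limma adjusted p = 0.0217 and 0.0119), and neither passed without AP 15, 17, 18 and 19.

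Among 25 tested hormone receptors and regulators of gluconeogenic transcription, 16 rose and 7 fell in SAP (median log2 change 0.69), where 74.0% of all genes passed, and in AP limma called 0, where 5.48% passed. Nr4a1, among the risers and named after its values were seen, averaged 0.251 TPM in controls, 0.185 TPM in AP and 4.03 TPM in SAP. It met the filter for testing only through SAP. Igfbp1, an IGF-binding protein gene that insulin represses in liver, was at 0.48 to 3.62 TPM in controls, 0.37 to 4.49 TPM in AP and 256 to 1939 TPM in SAP (log2 change 8.04 ± 0.39, limma adjusted p = 3.17e-15). Nr0b2, the repressor SHP, fell from 35.6 ± 11.5 to 0.428 ± 0.273 TPM, and Gcgr, the glucagon receptor, fell from 70.5 ± 17.6 to 19.3 ± 4.87 TPM (log2 change -1.81 ± 0.16). For Igfbp1, Nr0b2 and Gcgr, SAP and controls did not overlap, where 37.8% of all genes did not. Pik3r1, a regulatory subunit of the insulin-activated lipid kinase, rose from 2.54 ± 0.377 to 20.3 ± 5.92 TPM. The genes named by rule across the 5 lists all differed between SAP and controls with a limma adjusted p of at most 0.000248. These calls held in each of 40 alternatives. The rule picked these genes by the smallest p over the same 3 groups, so neither result is independent support.

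**Figure D5:**
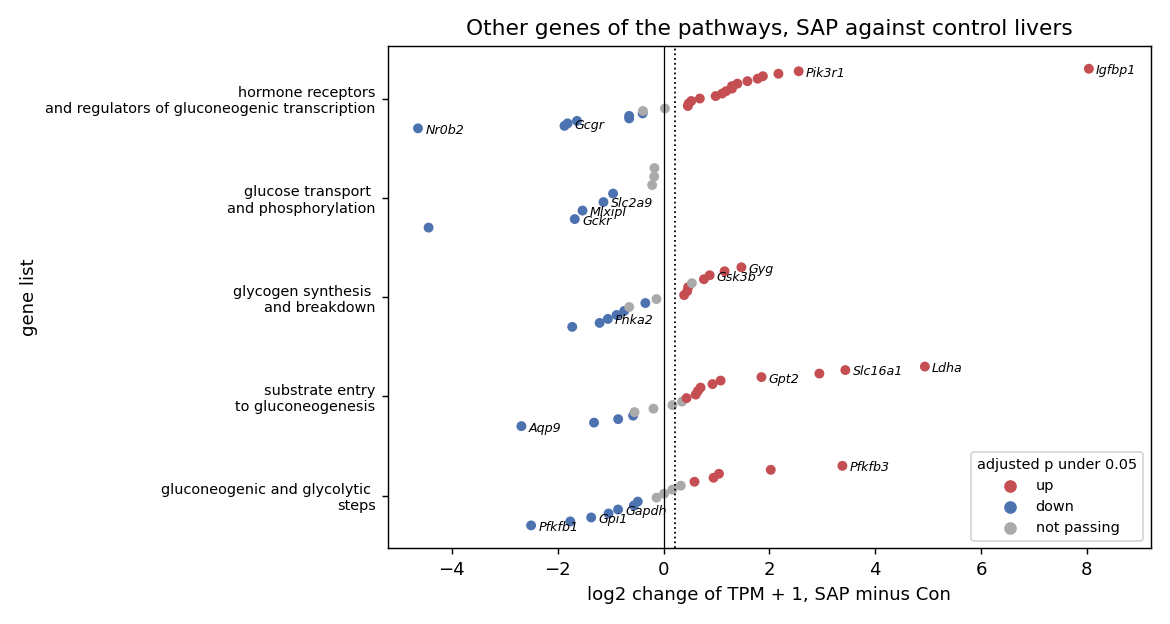
Log2 change of TPM + 1 between SAP and control livers (horizontal axis) for each tested gene of 5 lists, coloured by call at an adjusted p under 0.05, with genes of smallest p over the 3 groups named and the median of all genes (0.21) dotted. Ldha and Igfbp1 lie far to the right at 4.94 and 8.04, and Nr0b2 far to the left at -4.64.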

How the data were processed

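Liver RNA of 24 libraries had been extracted with Trizol from frozen tissue and sequenced on libraries made with Illumina protocols, per the labels. The authors deposited 1 table of 55536 genes in TPM. The unit was read from the values: libraries sum to between 986423 and 993642, and the smallest values above 0 fall with transcript length. The submitters' processing notes list edgeR, with no version or role. The sources used here name neither the aligner nor the genome build, the annotation or how TPM was computed. Because TPM values sum to a fixed total, abundant transcripts that rise lower all others.

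Columns were assigned by the samples' descriptions, with 0 left over. Because no counts were available, limma 3.58.1 (R 4.3.3), with an intensity trend, was fitted by group to log2(TPM + 1) of genes averaging 1 TPM or more across libraries, with 21 residual degrees of freedom, and tested on simulated data. The pathway lists, the marker lists and the members were chosen with earlier results of these data known. Named pathway genes are the 4 of each list with the smallest p of the F test over the 3 groups, and genes named where 5 or fewer of a list passed were chosen after their values were seen. Some genes that these rules name are not reported here. Alternatives were other scalings, filters, pseudocounts (0.1 and 0.01), variance models and sets of libraries. Of the 50-base windows of member transcripts at most 0.526% (Pygl) occur in transcripts of other genes.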

Additional observations from a re-analysis of the deposited data

Results flagged for a closer look

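In groups of 8 livers, the distance of the highest or lowest liver from the next was compared with the group's whole range, and 3 of 27 combinations of gene and group stood out. For normally distributed values chance gives about 1 in 20. The comparison used untransformed TPM, which can be skewed upward, so that rate need not hold here, and all 3 were highest values. Pck1 in Con 10 was at 779.62 TPM, with the next control at 460.08 TPM. Without it the SAP change against controls was -0.51 on the log2 scale (limma adjusted p = 0.16). G6pc in SAP 29 was at 8.61 TPM, with the next SAP liver at 2.86 TPM. Fbp1 in Con 6 was at 234.99 TPM, with the next control at 143.32 TPM, and without it the AP change was 1.18 on the log2 scale (limma adjusted p = 0.00408).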

How the results depend on the processing

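No paired analysis was possible because the 3 groups share no replicate numbers. The number of members passing between AP and controls (2) fell to 0 without AP 15, 17, 18 and 19, was 2 without any single library, and between SAP and the other groups it was 7 to 8 against controls and 8 against AP. The 9 pathway genes passing in AP became 15 after median centring, 17 with array weights, 5 with no filter, 15 without Con 3 and Con 9, 18 without AP 11, 12, 13 and 16, and 0 without AP 15, 17, 18 and 19. They were 3 to 12 leaving out single libraries (3 without Con 7 or AP 15, 4 without Con 10, AP 17 or AP 19), and 64 to 69 and 61 to 67 for SAP against controls and AP. Over all genes, the 578 in AP became 1006 after median centring, 384 without mitochondrial genes, 1458 with array weights, 222 with no filter, 877 without SAP 26 to 29, 913 without Con 3 and Con 9, 1229 without AP 11, 12, 13 and 16, and 11 without AP 15, 17, 18 and 19. Leaving out single libraries gave 179 to 840 (179 without Con 7, 184 without AP 15, 209 without Con 1, 211 without AP 17, 225 without Con 10, 238 without AP 19 and 352 without AP 18), and 7640 to 7837 and 7406 to 7633 for SAP against controls and AP. The cause was not tested.

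Scaling moved the median log2 change of all genes in SAP from 0.21 to -0.06 with median centring, 0.03 with quantile normalization and 0.04 without mitochondrial genes. With that centring the SAP changes were 2.03 for Fbp1, 1.36 for Pcx, -1.18 for Pygl, -1.55 for Gys2, -1.94 for Pklr, -2.08 for G6pc and -3.91 for Slc2a2, and none of the 8 tested members changed sign against controls in SAP under any alternative. Differences near 0 in AP changed sign. G6pc went from 0.05 to -0.0545 (quantile), -0.0048 (median centring), -0.0832 (without the 50 most abundant genes), -0.0532 (without mitochondrial genes), -0.0171 (array weights), -0.0584 (without Con 3 and Con 9) and -0.34 (without AP 15, 17, 18 and 19), and was -0.0396 to 0.1647 without single libraries. Pck1 was -0.0269 without AP 11, 12, 13 and 16, and Slc2a2 was -0.1546 to 0.0259 without single libraries. No depth is known, so low values such as those of Ppargc1a carry an error that cannot be given.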

Other observations

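The 9 members did not all vary together from liver to liver, though some pairs did. After each group's mean was subtracted, the Pearson correlation of log2(TPM + 1) over 24 livers was 0.81 between Fbp1 and Pcx, 0.63 between Pklr and Gys2, 0.62 between Pcx and Pygl and -0.02 between Pck1 and G6pc. These values describe the libraries, which share composition and, within AP and SAP, fall into sets for some genes, and they carry no p.

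By the same measure, among 5199 genes averaging 5 TPM or more, the genes most like Fbp1 included Acad11 and Sdhd (0.931 and 0.913), of which Sdhd encodes a subunit of respiratory complex II. Those most like Pcx were Pgm1, Vdac1 and Atp5a1 (0.90, 0.886 and 0.883), and those most like Pklr were Tkfc, Sec14l2 and Bdh1 (0.889, 0.883 and 0.879). Gys2 was closest to Pigl, Tefm and Smlr1 (0.895, 0.804 and 0.796), Slc2a2 to Apoa2, Cps1 and Ces1b (0.857, 0.793 and 0.784) and Pygl to Hadh, Abat and Epas1 (0.856, 0.836 and 0.83). Pck1 and G6pc had no such close partner, with Map2k1 (0.743) and L3hypdh (0.661) the nearest. For Ppargc1a the nearest were Fst, Klf15 and Slc25a51 (0.789, 0.787 and 0.77).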
